A study of Mus musculus with 32 samples.

Results

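Guanylate-binding proteins (GBPs) are large GTP-binding enzymes that cells make in response to interferons. Interferon gamma binds its receptor, the kinases Jak1 and Jak2 pass the signal on, and factors that include the interferon regulatory factor Irf1 raise transcription of the GBP genes. The proteins assemble on the vacuoles and membranes of intracellular microbes and help to release microbial products to inflammasomes, and several carry a lipid anchor added by prenylation. In tumours their RNA is widely used as a readout of interferon signalling, in cancer cells and in infiltrating immune cells alike. The 10 genes described here are Gbp2, Gbp3, Gbp4, Gbp5, Gbp6, Gbp7, Gbp8, Gbp9, Gbp10 and Gbp11, taken by their symbols, which occur in all 4 tables of the study, as do 20109 gene symbols in all.

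The study measured mRNA of E0771, a mouse mammary tumour cell line of C57BL/6 origin, with or without the collagen receptor gene Ddr1. Its 32 libraries fall into 8 groups. In culture there were 3 wild-type libraries (titled E0771-P, EV and Ctrl) and 2 knockout libraries (titled 3-6 and 3-7, so that each stands for its own derivative). Tumours in Rag1-/- mice, which lack mature T and B lymphocytes, gave 5 wild-type and 5 knockout libraries. Tumours transplanted from Rag1-/- into C57BL/6 hosts gave 4 wild-type and 5 knockout libraries at day 4. E0771 tumours of C57BL/6 hosts at day 6 gave 4 libraries after control IgG and 4 after an antibody against DDR1, and for these the labels leave the Ddr1 genotype unstated. The age of the mice is not given in the sources used here, nor is it said which libraries came from separate animals or cultures, so the p-values cover no more than the variation among these libraries, which may be technical.

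Each library held between 18967300 and 39732635 reads. The first wild-type culture library had reads for 15537 genes, against 13972 to 14430 in the other culture libraries. Cd3e, a chain of the T cell receptor complex, had 0 reads in all 5 Rag1-/- wild-type libraries and 1 read in 1 of the 5 knockout libraries. It had reads in every C57BL/6 library, but at day 4 only 1 to 15 (wild type) and 1 to 29 (knockout). The lowest day 4 libraries were therefore not set apart from Rag1-/- hosts by this gene. Other T cell markers went different ways between these hosts. In wild-type tumours Cd3d had 0 to 2 reads in Rag1-/- hosts and 3 to 14 at day 4. Cd3g had 0 to 3 and 4 to 12. Knockout ranges met for both genes: Cd3d had 0 to 1 and 1 to 32, Cd3g 0 to 2 and 2 to 41. Cd4 went the other way in wild-type tumours, with 102 to 201 reads in Rag1-/- hosts and 10 to 32 at day 4. Cd8a overlapped there, at 1 to 9 and 1 to 6, and so did Cd8b1, at 0 to 2 and 1 to 11. In whole tumours, fewer cells of a type and less RNA per cell cannot be told apart, and neither can tumour cells and host cells as the source of a GBP read. Levels of a gene across libraries are given as normalized counts within a table, and as RPM, reads scaled to the total of all gene reads in the library, across tables. The tables had been normalized separately, so no level was tested between them. One test joins 2 tables, and it sets side by side knockout differences that were each estimated within a table.

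On the mouse build GRCm38 the family lies in 2 clusters. Gbp5, Gbp7, Gbp3 and Gbp2 lie on the plus strand of chromosome 3 between positions 142493978 and 142638008. Gbp8, Gbp9, Gbp4, Gbp10, Gbp6 and Gbp11 lie on the minus strand of chromosome 5 between 105014150 and 105346472. Gbp11 is annotated as a polymorphic pseudogene and the other 9 as protein-coding. Close relatives can share reads, and the extent differed widely between members. Gbp10 shared 60.9% of the 100-base windows of its transcripts with another family gene, and Gbp6 shared 37.3%, in both cases mostly with each other. Counted against any annotated gene, these shares were 73.5% and 64.5%, and the gene that held most of them was Gm43302, whose span overlaps both on the same strand (63.6% for Gbp10 and 59.0% for Gbp6). The other 8 members shared at most 5.13% of such windows with the family, and Gbp2 and Gbp5 shared none. Gbp7 shared 9.59% with Gm43802, a gene outside it. The annotated spans of Gbp8, Gbp9 and Gbp4 also overlap on the same strand, although at most 1.77% of the exonic bases of any of them lie in exons of another. How the authors' counting treated such reads is not given in the sources used here, so the values of Gbp6 and Gbp10 are the least certain of the family.

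The RefSeq promoter table (GRCm38.p6) matched 4 members by symbol, Gbp2, Gbp3, Gbp5 and Gbp7, all of the chromosome 3 cluster. Their windows run from 250 bases before to 50 bases after the annotated start. The bases before the start are printed because the members varied together between tumours and the factors that act downstream of interferons bind known sequence motifs. Capitals mark matches, on either strand, to GAAANNGAAA, the core of the interferon-stimulated response element (ISRE) that interferon regulatory factors bind, and to TTCNNNGAA, the gamma-activated site (GAS) of interferon gamma target genes. The windows are chr3:142620413-142620662 for Gbp2, chr3:142559794-142560043 for Gbp3, chr3:142496684-142496933 for Gbp5 and chr3:142530086-142530335 for Gbp7, all on the plus strand and written 5′ to 3′.
Gbp2: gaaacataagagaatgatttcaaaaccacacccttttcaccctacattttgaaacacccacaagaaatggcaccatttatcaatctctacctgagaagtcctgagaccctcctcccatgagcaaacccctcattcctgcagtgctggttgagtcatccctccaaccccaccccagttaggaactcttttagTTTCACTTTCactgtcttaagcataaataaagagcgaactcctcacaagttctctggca
Gbp3: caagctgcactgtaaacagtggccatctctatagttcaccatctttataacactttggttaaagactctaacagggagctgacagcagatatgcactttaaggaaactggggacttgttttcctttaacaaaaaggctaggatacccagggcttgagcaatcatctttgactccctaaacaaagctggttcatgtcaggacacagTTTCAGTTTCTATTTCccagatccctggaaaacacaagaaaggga
Gbp5: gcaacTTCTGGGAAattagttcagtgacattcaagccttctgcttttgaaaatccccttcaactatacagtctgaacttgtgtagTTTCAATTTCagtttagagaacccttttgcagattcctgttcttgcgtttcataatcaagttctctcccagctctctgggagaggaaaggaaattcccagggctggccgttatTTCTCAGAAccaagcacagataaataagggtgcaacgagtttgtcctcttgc
Gbp7: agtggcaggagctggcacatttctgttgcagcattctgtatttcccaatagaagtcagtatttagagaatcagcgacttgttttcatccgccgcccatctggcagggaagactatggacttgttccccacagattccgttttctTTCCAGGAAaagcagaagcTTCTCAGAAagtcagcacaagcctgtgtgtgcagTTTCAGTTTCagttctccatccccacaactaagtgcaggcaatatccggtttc
An ISRE match lay in a window of each of these 4 members, against 3.44% of 32851 RefSeq promoter windows of the same length. It ended 50 bases before the start in Gbp2, 44 in Gbp7 and 156 in Gbp5, and in Gbp3 there were 2 overlapping matches of which the nearer ended 30 bases before the start. Gbp3 has a second annotated start, whose window held no match. GAS matches lay in Gbp5 and Gbp7 only among the 4, with 2 in each, against 8.30% of all windows, and 0.454% of windows held both motifs. In Gbp5 the GAS matches ended 237 and 44 bases before the start, and in Gbp7 98 and 79. A match is a description of the letters and shows no binding.

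The family as a whole was at its lowest in culture and at its highest in the day 6 tumours. Summed over the 10 members, the level was 13.2 to 31.6 RPM in wild-type and 12.8 to 14.8 RPM in knockout culture. In day 4 tumours it was 63.8 to 133 RPM (wild type) and 83.2 to 204 RPM (knockout). In Rag1-/- hosts it was 304 to 499.6 RPM (wild type) and 294 to 610.2 RPM (knockout), and at day 6 it was 737 to 1950.2 RPM under IgG and 523 to 1457 RPM under the DDR1 antibody. The ranges did not overlap between culture and day 4 or between day 4 and Rag1-/- hosts. The neighbours wild type and knockout overlapped in every setting, IgG and antibody overlapped, and the highest Rag1-/- library, knockout 3, exceeded the lowest 2 antibody libraries. Host, day and table differ between these settings and cannot be told apart.

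Single members differed in how far they stood above culture. Between wild-type culture and wild-type Rag1-/- tumours, the ratio of mean RPM was taken over the 8 members with reads in culture. It ran from 5.99 for Gbp2 to 104 for Gbp8, with a median of 39.9. Gbp8 had 5 reads in wild-type culture. For all 8 the ranges of the libraries did not overlap. How many of all genes do so between these settings was not counted, so this does not set the family apart from other genes. Gbp2, which helps to control intracellular parasites, was the only member at more than 7 RPM in any culture library. It had 15.6, 8.66 and 10.9 RPM in wild-type and 11.3 and 9.64 RPM in knockout culture, 58.8 to 82.97 RPM in Rag1-/- wild type, 18.2 to 41.3 RPM in day 4 wild type, and 239 to 803 RPM under IgG at day 6. Gbp5, which promotes inflammasome assembly, had 1.44 to 2.90 RPM in wild-type culture and 72.2 to 153 RPM under IgG at day 6. Gbp10 and Gbp11 had 0 reads in all 5 culture libraries. Gbp11 stayed at or below 0.994 RPM in all 32 libraries. Gbp10 reached 14.3 RPM, in IgG library 3 at day 6.

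**Figure D1:**
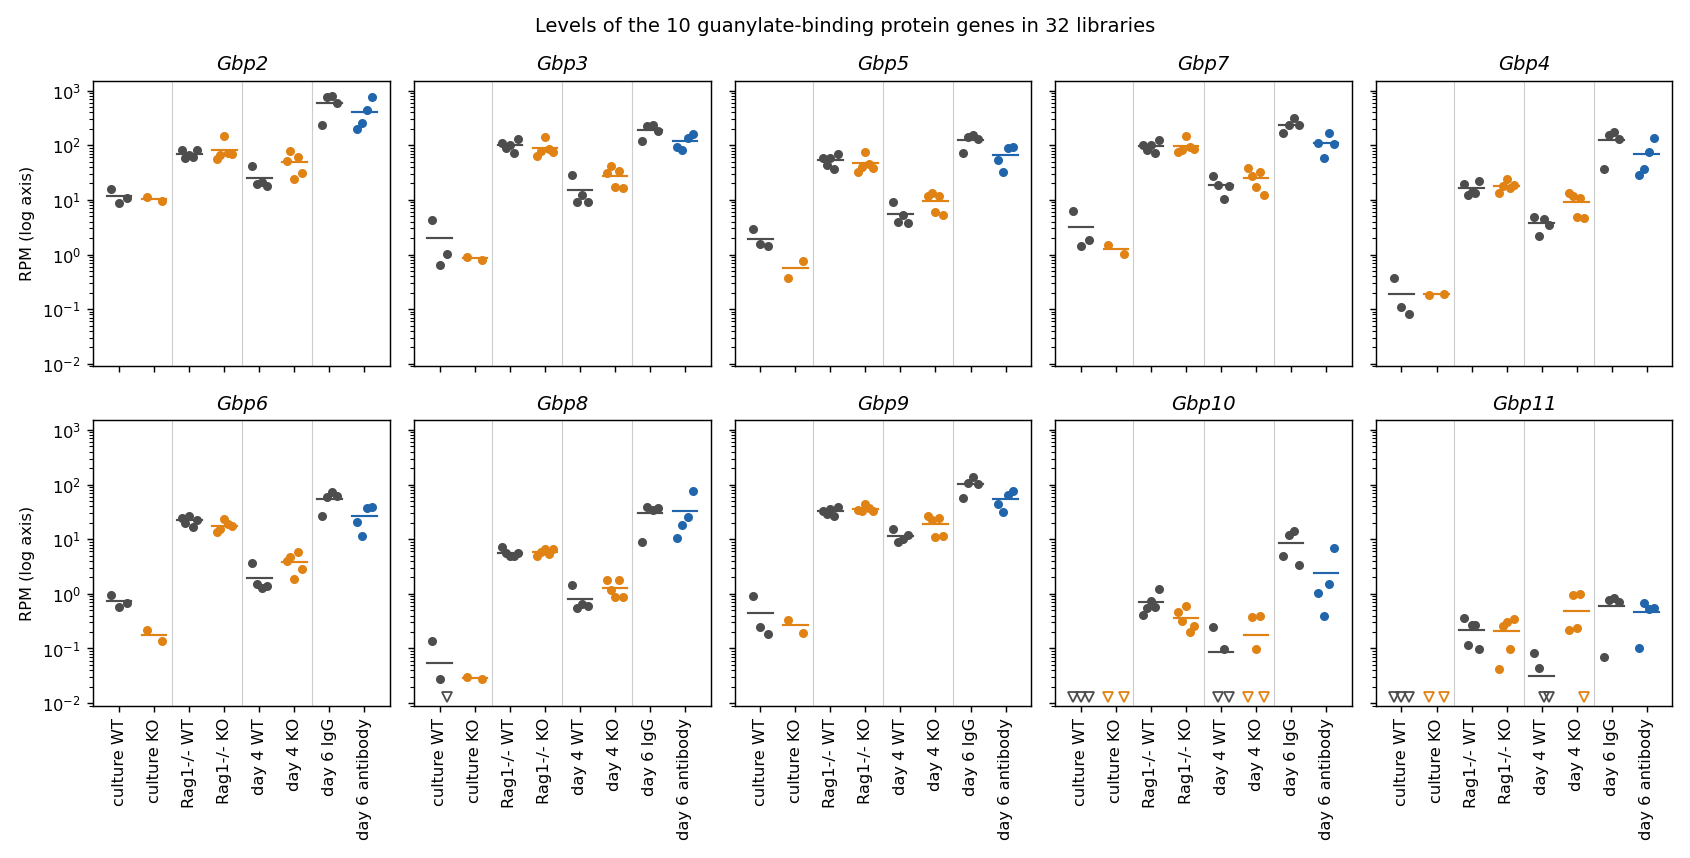
Level of each member in every library, in RPM on a log axis; points are libraries, lines are group means, open triangles are libraries with 0 reads, and vertical grey lines separate the 4 tables. The culture libraries lie below all tumour libraries for the 8 members with reads in culture, with Gbp2 at 8.66 to 15.6 RPM there; Gbp10 and Gbp11 are at 0 in culture and in some day 4 libraries.

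Per length, Gbp2, Gbp3 and Gbp7 had the 3 highest mean levels in all 8 groups. Levels per kilobase of exon (RPKM) allow members to be compared with each other. Gbp2 led in 7 groups, with a mean of 4.66 RPKM in wild-type culture and 239 RPKM under IgG at day 6, where Gbp3 had 58.7 and Gbp7 42.7 RPKM. In Rag1-/- wild-type tumours Gbp3 led with 30.7 RPKM, next to Gbp2 at 27.9 and Gbp7 at 17.2 RPKM. Gbp10 and Gbp11 were the lowest 2 members in all 8 groups.

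The make-up of the family's reads therefore differed between settings. In culture Gbp2 held 49.3 to 76.0% of the family's reads. Its share was 16.5 to 24.0% in Rag1-/- hosts, then 27.5 to 38.9% in day 4 tumours, and 32.5 to 52.2% in those of day 6. Gbp9 held 11.1 to 18.1% at day 4, but 7.21 to 11.6% in Rag1-/- hosts and 5.17 to 7.90% at day 6. The chromosome 5 members together held 4.31 to 7.57% in culture and 16.2 to 26.3% in all tumours. These shares are ratios within a library and do not depend on its normalization. They can depend on the counting, and the gene sets differed: 22609 genes for culture and Rag1-/- hosts, and 25277 for day 4 and day 6. The effect of that on the shares was not tested.

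**Figure D2:**
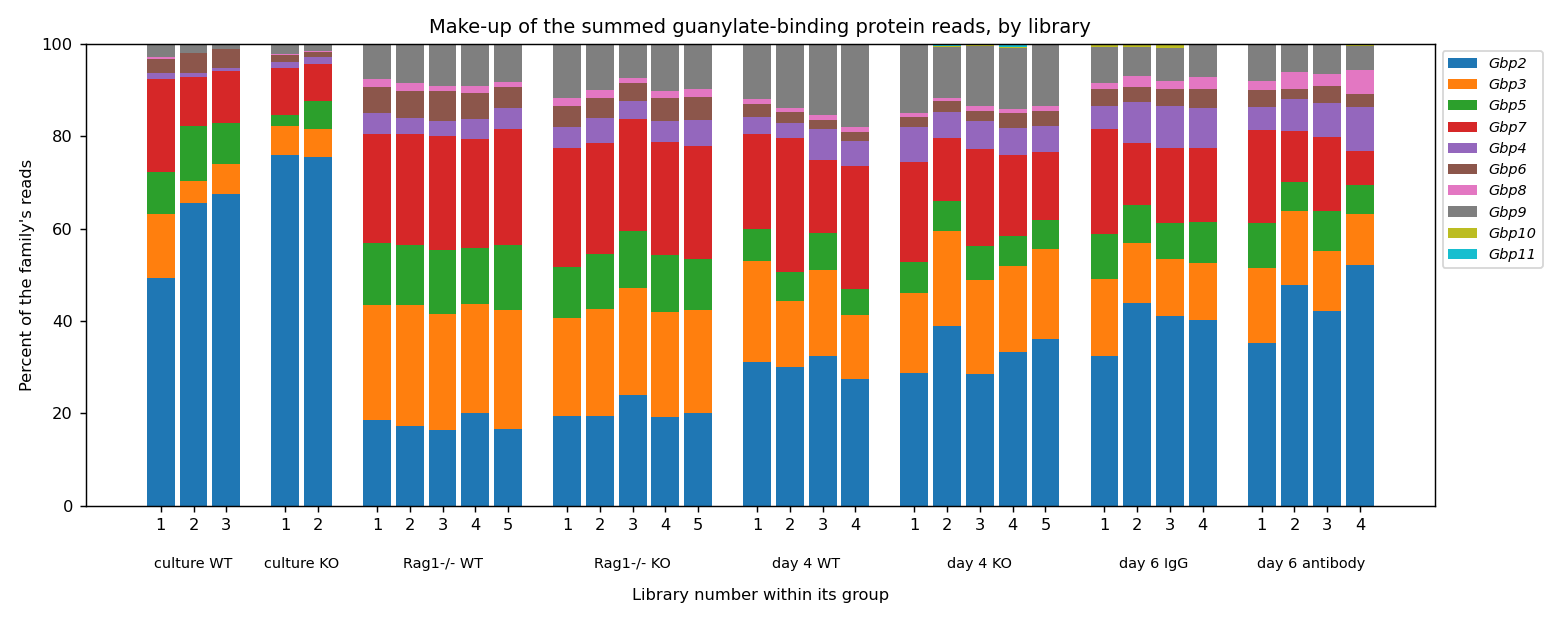
Share of each member in the summed reads of the 10 genes, in percent, 1 bar per library. Gbp2 makes up 49.3 to 76.0% in culture and 16.5 to 24.0% in Rag1-/- hosts, where the 10 libraries resemble each other.

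In culture, none of the members was called changed between knockout and wild type. The test was limma on log2 values with a pseudocount of 1, for genes whose mean in the table reached 10, and a call is an adjusted p under 0.05. Of the 10 members 6 passed that filter, and 0 were called, against 0.327% of all 11911 genes tested. All 6 estimates were below 0, with a median of -0.86 on the log2 scale against 0.0035 over all genes tested, though Gbp9 lay at 0.0055 under quantile normalization. An unadjusted limma p under 0.05 was found for 2 members and for 18.8% of all genes tested. edgeR and DESeq2 on recovered reads also called 0 members.

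Gbp5 and Gbp6 were the members whose culture groups did not overlap, while 36.2% of all genes tested did not overlap between 3 and 2 libraries. Gbp5 had 99.6, 52.8 and 48.7 normalized counts in wild-type and 12.6 and 27.02 in knockout culture, a difference of -1.73 ± 0.49 (SE) with adjusted p = 0.131. Gbp6 had 32.8, 19.5 and 22.5 in the wild-type libraries and 7.34 and 4.82 in the knockouts, a difference of -1.86 ± 0.54 (SE) with adjusted p = 0.134. Wild-type library 1, titled E0771-P, was the highest culture library for all 8 members with reads. Wild-type libraries 2 and 3 are those titled EV and Ctrl. Library 1 had 218 normalized counts of Gbp7 against 35.7 to 62.2 in the other 4 libraries, and 150.0 of Gbp3 against 22.2 to 35.1. Without that library the estimates of Gbp2 and Gbp3 turned to 0.13 and 0.08. The 16 genes of the type I interferon response were also high in it, at a sum of 368 RPM against 75.4 to 115 RPM in the other 4. Adipocyte markers summed to 34.8 RPM in it against 4.41 to 11.8 RPM, and muscle markers to 19.5 RPM against 2.97 to 5.58 RPM. Its macrophage markers, at 46.3 RPM, lay above the 14.3 and 19.5 RPM of the other wild-type libraries. The knockout libraries had 29.8 and 50.9 RPM of macrophage markers. The part of these markers in the result was not tested.

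In Rag1-/- hosts, none of the members was called changed between knockout and wild type, although many genes were. Of the 10 members 9 were tested and 0 were called by limma, against 22.7% of the 12795 genes tested. No member's groups failed to overlap, against 15% of genes. The estimates were above 0 for 4 members and below 0 for 5, with a median of -0.06 against -0.0035 over all genes tested, and Gbp8 turned from above to below 0 under quantile normalization (-0.036). An unadjusted p under 0.05 was found for 2 members (Gbp6 and Gbp10) and for 36.1% of all genes tested. edgeR called 0 members and DESeq2 called 1, Gbp6, with adjusted p = 0.0451. Over all genes DESeq2 called 3193 of 12540 here.

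Gbp6 had 370.6 to 564.7 normalized counts in the wild-type libraries (median 479) and 286 to 482 in the knockout libraries (median 360), a difference of -0.37 ± 0.14 (SE) with adjusted p = 0.0740. Gbp10 had 8.68 to 25.8 in wild type and 4.18 to 12.4 in knockout, a difference of -0.88 ± 0.35 (SE) with adjusted p = 0.0850. The reads of these 2 are hard to separate, as given above. The most abundant members lay close to 0: Gbp7 differed by -0.06 (95% confidence interval -0.42 to 0.30) and Gbp2 by 0.11 (-0.31 to 0.53).

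Knockout library 3 was the highest of the 10 Rag1-/- libraries for 6 members. It had 3013 normalized counts of Gbp2 against 1202 to 1741 in the other 9, and 3050 of Gbp7 against 1557 to 2639. Without it, limma called 4 members lower in the knockout: Gbp3 by -0.42 (adjusted p = 0.0318), Gbp5 by -0.45 (0.0446), Gbp6 by -0.47 (0.0162) and Gbp10 by -1.06 (0.0455). In that run 1517 of all 12791 genes tested were called lower and 1540 higher. Without wild-type library 4, Gbp6 alone was called, by -0.45 (adjusted p = 0.0338), beside 1269 of 12805 genes called lower and 1334 higher. Knockout library 3 also had the highest sum of macrophage markers, 1481 RPM against 905 to 1295 RPM, and of natural killer cell markers, 26.2 RPM against 11.4 to 21.5 RPM. Fibroblast markers summed to 509.9 to 639 RPM in the wild-type and 417 to 474 RPM in the knockout libraries, which did not overlap. The 5 markers did not move as 1: limma called 2 lower and 1 higher, where it called 22.7% of all genes. Single groups failed to overlap for 1 of the 5, against 15% of genes. The part of these cells in the result was not tested.

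Genes upstream of the family were measured in the same fit. In the Rag1-/- hosts Irf1, Jak1, Jak2, Ifngr1 and Ifngr2 were not called, with estimates from -0.11 to 0.11. Ifng itself had at most 0.661 RPM in any Rag1-/- library. Of 16 genes of the type I interferon response, 5 fell and 0 rose, with a median of -0.40, while 11.4% of all genes tested fell and 11.3% rose. The 3 of smallest p were Irf9, an interferon regulatory factor (-0.31, adjusted p = 0.00506), Oas2, an antiviral enzyme (-0.52, 0.0138), and Oasl2, its relative (-0.50, 0.0298). Of 13 tested interferon gamma targets outside the family 4 fell and 1 rose. The immunity-related GTPases (IRGs), a second family of interferon-induced GTPases that acts on vacuoles, had 9 members tested, all below 0 (median -0.19) and 0 called.

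Genes that act with the GBP proteins were called in few cases in Rag1-/- hosts, where 22.7% of all genes were called, and these counts are not set apart from that share. Of 8 inflammasome and pyroptosis genes 1 fell, Casp1, the inflammasome protease (-0.46, limma adjusted p = 0.0104). Of 8 genes of the autophagy conjugation machinery that directs GBPs to vacuoles 1 rose, Atg5 (0.21, 0.0159). Of 5 prenylation genes 1 rose, Pggt1b, a subunit of the geranylgeranyl transferase (0.23, 0.0183), and 1 fell, Rce1, the protease that trims prenylated proteins (-0.20, 0.0298). None of 5 negative regulators of the interferon gamma pathway was called. In the other 3 comparisons, where at most 0.327% of all genes were called, none of these genes was.

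At day 4 in C57BL/6 hosts, every tested member was estimated higher in knockout than in wild-type tumours, and none was called. Of the 10 members 8 were tested and 0 were called by limma, against 0.0354% of the 14105 genes tested. No member's groups failed to overlap, against 5.76% of genes. The estimates ran from 0.38 (Gbp7) to 1.14 (Gbp4), with a median of 0.81 against 0.0028 over all genes tested. An unadjusted p under 0.05 was found for 4 members and for 15% of all genes tested. edgeR called 0 members, and DESeq2 called 1, Gbp4, with adjusted p = 0.0346, beside 720 of 15659 genes in all.

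Gbp4 had 115, 51.5, 109 and 80.8 normalized counts in the wild-type libraries and 292, 255, 115, 249.3 and 112 in the knockout libraries. Knockout libraries 3 and 5 lay within 4 counts of wild-type library 1, and the other 3 were all above the wild type. The difference was 1.14 ± 0.37 (SE) with adjusted p = 0.221, and the authors' deposited table gives Gbp4 an adjusted p of 0.0339. Gbp2 had 963, 460, 515 and 425 in the wild-type libraries and 1107, 1746, 558, 1392 and 729 in the knockouts, a difference of 0.87 ± 0.35 (SE) with adjusted p = 0.298. Gbp11, below the filter, had 3 reads over the 4 wild-type libraries and 62 over the 5 knockout libraries, of which 27 and 25 lay in libraries 2 and 4 and 0 in library 5.

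The libraries split in the same way for most members. Wild-type library 1 stood above the other 3 wild-type libraries in the family sum, at 133 RPM against 63.8 to 66.2 RPM, and knockout libraries 3 and 5 were low at 83.2 and 84.6 RPM against 178 to 204 RPM. The 10 macrophage markers summed to 4458 RPM in wild-type library 1 against 1625 to 1855 RPM in the other 3. They summed to 1578 and 2353 RPM in knockout libraries 3 and 5 against 3591 to 4575 RPM in the other 3. The part of macrophage RNA in the GBP levels was not tested. Other markers also differed between the groups in median log2 estimate: adipocyte genes by 3.78, keratinocyte genes by 5.23, luminal genes by 3.49 and endothelial genes by 1.19, with 0 calls among them. Of the 5 luminal genes 3 were above 0 and 2 below 0. Their sums overlapped, at 488 to 633 RPM in wild type and 460 to 725 RPM in knockout. The summed markers did not overlap between wild type and knockout for keratinocytes (0.688 to 1.32 RPM against 12.4 to 589 RPM) and for erythroid cells (2.02 to 5.85 RPM against 11.9 to 78.2 RPM). Of the 5 erythroid genes 4 had 0 reads in each of these libraries, so the erythroid sum holds the reads of 1 gene. The part of these cell types was not tested either. Irf1 differed by 0.28 (adjusted p = 0.310), and all 10 IRGs were estimated higher, with a median of 0.51 and 0 calls.

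At day 6, limma estimated all 10 members lower under the DDR1 antibody than under IgG and called none, but Gbp8 was estimated higher by edgeR (0.13) and DESeq2 (0.13) and lay at 0.00081 under upper-quartile rescaling. All 10 were tested and 0 were called, against 0% of the 14155 genes tested, and the median was -0.91 against -0.012 over all genes tested. An unadjusted p under 0.05 was found for 6 members and for 1218 genes (8.6% of those tested). edgeR called 0 members and DESeq2 called 1, Gbp7, with adjusted p = 0.0231, beside 162 of 15138 genes in all.

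Gbp7 was the 1 member whose day 6 groups did not overlap, against 3.9% of all genes tested. It had 5075, 7211, 9468 and 6774 normalized counts under IgG (7132 ± 1809, SD, n = 4) and 3344, 1780, 4710 and 3220 under the antibody (3263 ± 1198, SD, n = 4). The difference was -1.17 ± 0.29 (SE) with a limma adjusted p of 0.517, and the authors' deposited table gives an adjusted p of 0.0238. Gbp10 had the estimate farthest from 0, at -2.30 ± 0.81 (SE), with 146, 359, 427 and 97.0 under IgG and 31.6, 11.8, 42.8 and 206 under the antibody. Antibody library 4 lay above IgG libraries 1 and 4, so its groups overlapped.

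Other members were spread more widely. Gbp2 had 7203, 23436, 23895 and 17151 normalized counts under IgG and 5896, 7639, 12340 and 22825 under the antibody, a difference of -0.61 (95% confidence interval -1.70 to 0.47). IgG library 1 lay within the range of the antibody libraries, and antibody library 4 within that of IgG. Gbp3, Gbp5, Gbp6 and Gbp9 differed by -0.71, -0.97, -1.09 and -0.93, each with a limma adjusted p of 0.517. Gbp8 was centred near 0 at -0.06 (-1.50 to 1.38), with 266, 1205, 999 and 1093 under IgG and 314, 563, 732 and 2287 under the antibody. Its mean was 891 under IgG and 974 under the antibody, so the sign of its estimate depended on the scale.

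**Figure D3:**
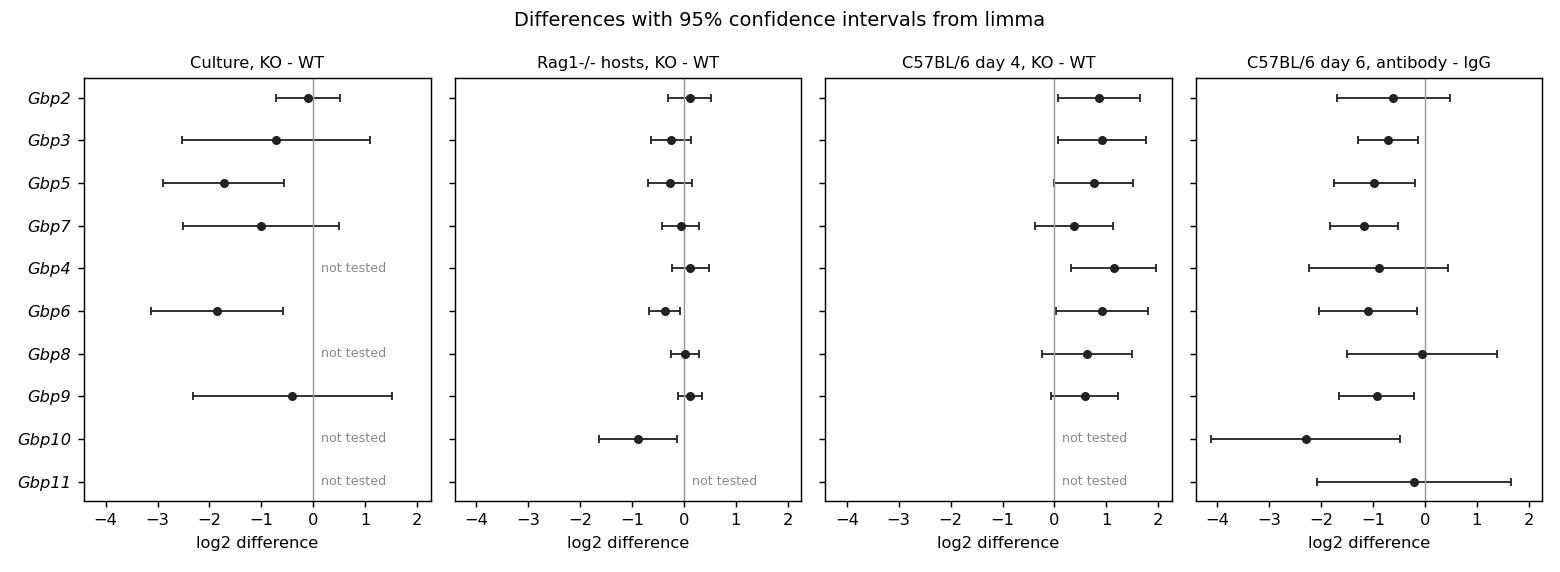
Log2 difference of each tested member in each comparison, with 95% confidence intervals from limma; members below the filter are marked as not tested. The day 4 estimates are all above 0 (0.38 to 1.14), the day 6 estimates all below 0 by limma (-2.30 to -0.06; edgeR gives Gbp8 0.13), and those in Rag1-/- hosts lie on both sides of 0.

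Antibody library 4 had the highest T cell and macrophage marker sums of the day 6 libraries, and its members did not move as 1 block. The 6 T cell markers summed to 339 RPM there against 15.7 to 145 RPM in the other 7, the 10 macrophage markers to 12290 RPM against 2993 to 6512 RPM, and Ifng to 11.9 RPM against 0.377 to 7.32 RPM. It had the highest Gbp8 of all day 6 libraries and Gbp2 within the range of the 3 highest IgG libraries, whereas its Gbp7 was below all 4 IgG libraries. Per 100 reads of Gbp7 it had 71.0 reads of Gbp8, against 5.24 to 16.7 under IgG and 9.38 to 31.7 in the other antibody libraries. In Rag1-/- hosts that ratio was 4.45 to 7.76, and at day 4 it was 3.02 to 7.14. The close relative Gbp2b, not one of the 10, had 80.5 to 1591 normalized counts under IgG and 137 to 3071 under the antibody, with its highest value again in antibody library 4. It had at most 5 reads in any day 4 library.

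The other interferon genes at day 6 were likewise not called by limma. Irf1 differed by -0.47 (adjusted p = 0.577) and Ifng by -0.25 (0.934). All 10 IRGs were estimated lower, with a median of -0.87, and 8 had an unadjusted p under 0.05. All 16 type I response genes were estimated lower, with a median of -0.74. Of the 14 interferon gamma targets outside the family 8 were above 0 and 6 below 0, with a median of 0.05. Muscle markers differed by a median of -4.92, adipocyte markers by 3.48, keratinocyte markers by 3.36 and luminal markers by 1.72 at day 6, with 0 calls, and their part in the GBP differences was not tested.

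The knockout difference was compared between the 2 hosts by the difference of the 2 limma estimates. None of the 8 members with an estimate in both hosts was called (0 of 8), against 2.99% of 11247 genes. All 8 estimates were higher at day 4, by 0.44 (Gbp7) to 1.29 (Gbp6). For Gbp6 the knockout estimate was -0.37 in Rag1-/- hosts and 0.93 at day 4, a difference of 1.29 ± 0.42 (SE) with adjusted p = 0.126. For Gbp3 the difference was 1.16 ± 0.42 (SE) with adjusted p = 0.159. Without wild-type library 1 of day 4, both were called, Gbp3 at 1.54 (adjusted p = 0.0307) and Gbp6 at 1.63 (adjusted p = 0.0452). The 2.99% of all genes holds for the fit with every library and not for that run.

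Within the groups, the members varied together from tumour to tumour. For each of the 8 members with enough reads, the deviation of its log2 level from the mean of its group was followed over the 27 tumour libraries. Its Pearson correlation with the mean deviation of the other members was 0.94 for Gbp2, 0.93 for Gbp5 and Gbp9, 0.90 for Gbp3 and Gbp6, 0.89 for Gbp4, 0.79 for Gbp8 and 0.72 for Gbp7. The libraries share their depth and tissue make-up across genes, and members are not independent of each other. Gbp8 was the steadiest of the 8 in Rag1-/- hosts, with an SD of 0.18, and the most variable at day 6, with an SD of 1.03. Gbp9, with SDs of 0.19, 0.45 and 0.50 in Rag1-/- hosts, at day 4 and at day 6, varied less than Gbp2, with 0.37, 0.58 and 0.77.

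**Figure D4:**
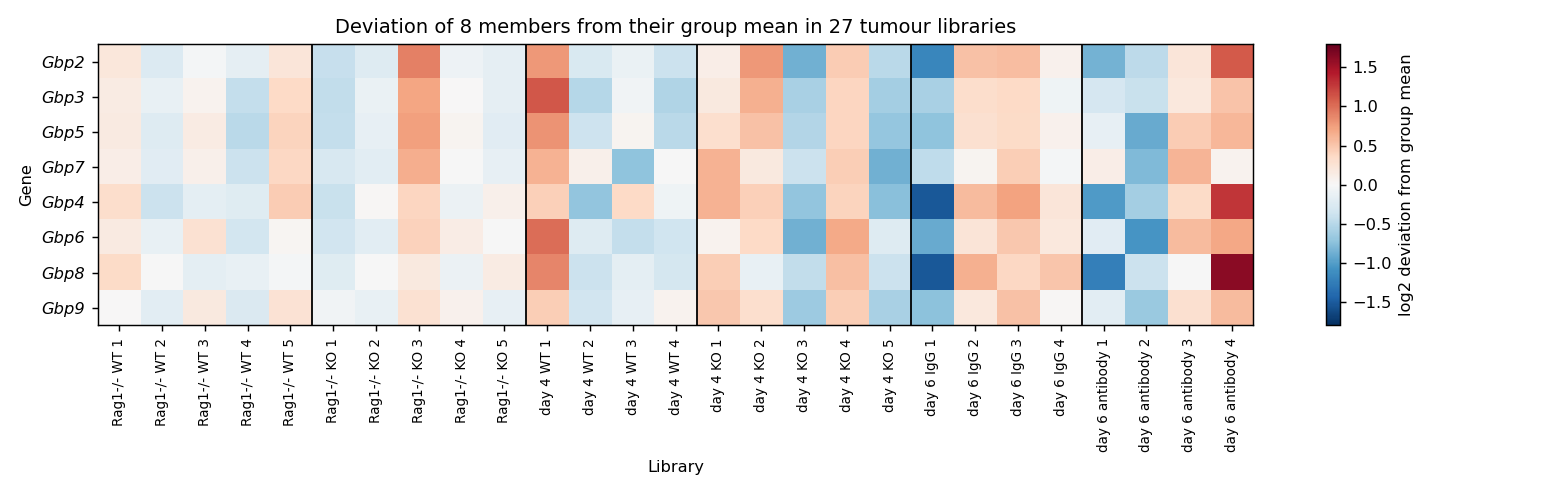
Log2 deviation of 8 members (rows) from their group mean in 27 tumour libraries (columns), red above and blue below the mean, with black lines between groups. Knockout library 3 in Rag1-/- hosts and wild-type library 1 at day 4 are above the mean for all 8 members, and antibody library 4 at day 6 ranges up to 1.63 for Gbp8.

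The deviations of other genes were also set against the mean of these 8 members. Among 11198 genes over the same 27 libraries, those of highest Pearson correlation included Irgm1 (0.95), Samhd1 (0.94), Uba7 (0.94) and Plac8 (0.93), all within the first 5, with Spearman correlations of 0.93 to 0.95. Irgm1 is an IRG that regulates the others, Samhd1 a nucleotide hydrolase that restricts viruses, and Uba7 the activating enzyme for the ubiquitin-like protein Isg15. Within single tables, Irgm1 had 0.97 (10 libraries in Rag1-/- hosts), 0.95 (9 at day 4) and 0.95 (8 at day 6).

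The family sum also differed relative to cell markers between hosts. In Rag1-/- tumours it was 294 to 610.2 RPM beside macrophage markers of 905 to 1481 RPM (9 of the 10 genes), while at day 4 it was 63.8 to 204 RPM beside macrophage markers of 1578 to 4575 RPM. T cell markers summed to 4.88 to 8.77 RPM in Rag1-/- hosts, most of it Cd4, whose cell source was not tested, and to 1.205 to 8.39 RPM at day 4. The part of any cell type in the family's level was not tested.

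**Figure D5:**
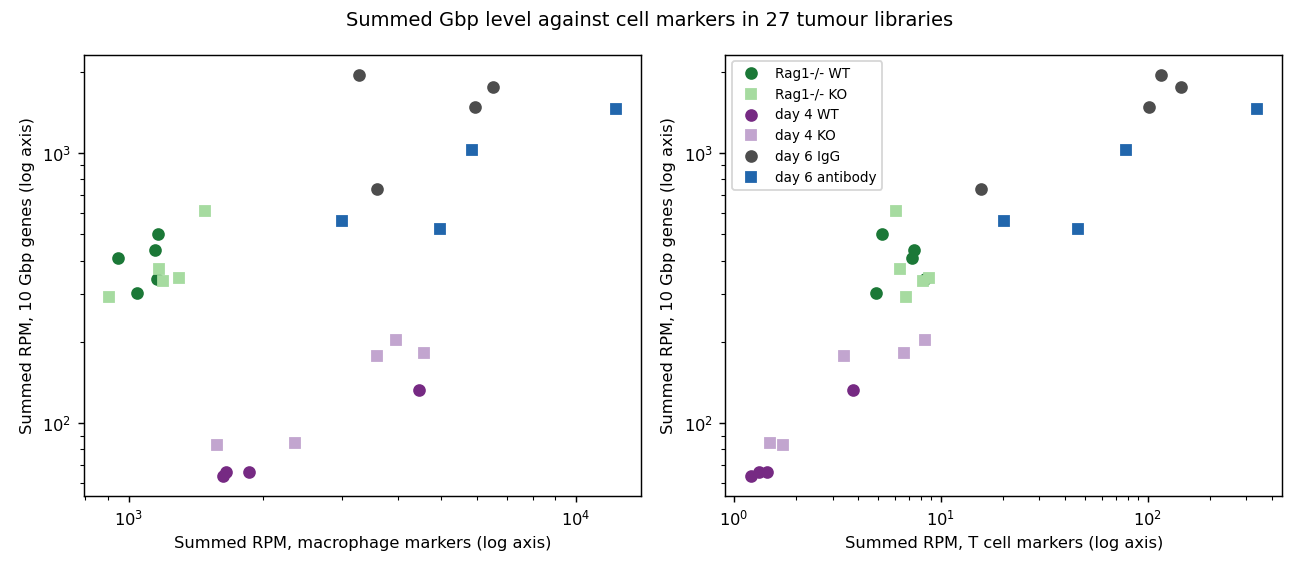
Summed level of the 10 members against the summed level of macrophage markers (left) and T cell markers (right) in 27 tumour libraries, both axes in RPM on log scales, 1 point per library. Rag1-/- libraries lie above the day 4 libraries in GBP level although their macrophage markers are lower, and the day 6 libraries are highest on the GBP axis except for 2 antibody libraries.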

How the data were processed

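RNA of 32 samples was measured by sequencing of TruSeq stranded mRNA libraries, per the labels' protocols. CASAVA, TopHat, DESeq2 and the build mm10 are named, without roles or versions, per the submitters' processing notes; what counted the reads, and with which annotation, is not given in the sources used here. The authors deposited 4 tables of normalized counts (a signal per gene and library), together with p-values and adjusted p-values of their own. The deposited signal values were whole multiples of 1 step per library, which gave whole reads within 0.01 for 100% of values; RPM and RPKM (union of GENCODE exons, GRCm38) came from these reads. Another 18 columns, which hold the authors' group averages and fold changes, were left aside. Samples were grouped by their labels. limma 3.58.1 with a mean-variance trend was fitted within each table on log2(normalized count + 1), for genes averaging at least 10, with Benjamini-Hochberg adjustment over all genes; folds on this scale understate changes of weak genes. edgeR 4.0.16, DESeq2 1.42.0, other pseudocounts, filters and scalings, a replicate block and leaving out each library were alternatives. The scripts were tested on simulated data. Members and gene lists were chosen with earlier results of these data known. All 10 members were named, with fixed interferon axis genes, counts for other lists (at most 3 called members of smallest p by name), and the 5 genes most like the family; an item that these rules would name is not reported here.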

Additional observations from a re-analysis of the deposited data

Results flagged for a closer look

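Of 66 sets of 4 or 5 libraries examined (each member and the family sum in each tumour group), 8 held a library set far apart from the others by Dixon's criterion, which chance meets in about 1 in 20 sets; the sets share libraries and are not independent. Knockout library 3 in Rag1-/- hosts accounted for 3 of them, with 3013 normalized counts of Gbp2 (next highest 1506), 3050 of Gbp7 (next highest 1928) and a family sum of 610.2 RPM (next highest 373). Wild-type library 1 at day 4 accounted for 4, with 963 normalized counts of Gbp2 (next 515), 86.4 of Gbp6 (next 36.1), 33.4 of Gbp8 (next 15.6) and a family sum of 133 RPM (next 66.2). Antibody library 4 at day 6 had 206 normalized counts of Gbp10 against 42.8 in the next highest antibody library.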

How the results depend on the processing

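The number of members called was 0 in each comparison and stayed 0 in culture under every alternative run. Over all genes DESeq2 on recovered reads called 1057 in culture, 3193 in Rag1-/- hosts, 720 at day 4 and 162 at day 6. limma called 39, 2904, 5 and 0, and 1655 in culture without wild-type library 1. The number of members became 1 with DESeq2 on recovered reads in Rag1-/- hosts (Gbp6), at day 4 (Gbp4) and at day 6 (Gbp7). With 1 library left out it ranged from 0 to 4 in Rag1-/- hosts, from 0 to 2 for the difference between hosts, and from 0 to 0 in culture, at day 4 and at day 6. With the replicate number as a block (replicate block) 0 members were called in Rag1-/- hosts, at day 4 and at day 6, and over all genes the calls were 2411, 2 and 0 against 2904, 5 and 0 without it; at day 4 the block leaves out knockout library 5, which has no partner. Same-numbered libraries did not all deviate together (correlations from -0.28 to 0.54), and in Rag1-/- hosts and at day 4 none correlated best with its own number. At day 6 numbers 1 and 4 did, at 0.54 and 0.41, while numbers 2 and 3 did not. With the block 2017 day 6 genes had an unadjusted limma p under 0.05, against 1218 without it. Whether the numbers pair the samples cannot be decided from these correlations, and the labels do not say. No paired analysis was possible in culture because the titles carry no shared numbers. Among 763 alternative values of single members, 731 kept direction and side of the threshold, 10 passed it and 22 turned sign, all of these uncalled. With 1 library left out, the members whose sign turned ranged, in culture, over -0.30 to 0.13 (Gbp2) and -1.27 to 0.081 (Gbp3). In Rag1-/- hosts they ranged over -0.12 to 0.22 (Gbp2), -0.22 to 0.033 (Gbp7) and -0.019 to 0.11 (Gbp8), and at day 6 over -0.60 to 0.35 (Gbp8) and -0.96 to 0.33 (Gbp11). The sign turned under quantile normalization for Gbp9 in culture (0.0055) and Gbp8 in Rag1-/- hosts (-0.036), and at day 6 for Gbp8 under upper-quartile rescaling (0.00081), edgeR (0.13) and DESeq2 (0.13); the cause was not tested. Members with few reads (Gbp10, Gbp11) could not be tested in culture at any setting, where they had 0 reads.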
